A study of Mus musculus with 6 samples.

Results

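Plasma cells are the antibody-secreting end stage of the B cell lineage, and many of them lodge in bone marrow. Their program is switched on by the transcription factors IRF4 and PRDM1 (BLIMP1), which close down the B cell state, and by XBP1, which enlarges the endoplasmic reticulum (ER) so that immunoglobulin can be folded, assembled and exported. Survival factors of the TNF family act on them through receptors such as BCMA, and syndecan 1 (CD138) marks their surface.

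The 10 genes described here were Sdc1, Tnfrsf17, Slamf7, Irf4, Prdm1, Xbp1, Jchain, Mzb1, Derl3 and Fkbp11, chosen by name as genes of plasma cells with the immunoglobulin genes left out. Each matched 1 row of the 34709 genes of the deposited table, and all 10 passed the filter for testing (FPKM averaging 0.5 or more across libraries, where FPKM are read fragments scaled to transcript length and library size). They were followed in articular cartilage of knockout (KO) and wildtype male mice, which the methods describe as littermates aged 18 months, with 3 RNA-seq libraries labelled for each group and no treatment in the labels. No source used here says that the knockout was limited to a cell type. Nothing in the labels says that the libraries came from separate mice, so the p-values measure the spread between libraries.

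The labels were first checked against the targeted gene, which is not named here. It had 62, 22 and 17 counts in the libraries labelled KO replicates 1, 2 and 3, and 56, 46 and 49 counts in wildtype replicates 1, 2 and 3 (0.0991, 0.0289 and 0.0226 FPKM against 0.0815, 0.0713 and 0.0729 FPKM). The library labelled KO replicate 1 was therefore above every wildtype library, and KO replicates 2 and 3 were below all of them. The gene lay under the filter for testing, and the table gives 1 value per gene, so reads from outside a deleted part cannot be told apart from intact transcript. The targeted gene thus goes against the label of KO replicate 1. The differences of the 10 genes and each list median that is reported are therefore also given without that library.

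The libraries held 52268311 to 63331135 counts. KO replicates 2 and 3 differed far less than any other pair (noise ratio 5.78 against 23.7 to 85.4 for the other 14 pairs, where Poisson sampling of single reads gives 1), so they were averaged and counted as 1 sample, leaving 2 KO and 3 wildtype samples. The library labelled KO replicate 1 was closer to wildtype replicates 2 and 3 (25.9 and 43.5) than to KO replicates 2 and 3 (75.2 and 73.6). Its noise ratio with wildtype replicate 1 was 76.7. The cause was not tested. Fits without that library hold 1 KO sample. The tissue label was checked against 10 chondrocyte markers. Their summed level was 523 to 1211 FPKM, of which Prg4 alone gave 402 to 1034 FPKM. Comp was at 41.0 to 109 FPKM, Col2a1 at 12.4 to 21.3, Acan at 13.2 to 22.8 and Sox9 at 0.865 to 2.81 FPKM. Matn3 was at 0 FPKM in 3 libraries and at most 0.202 FPKM elsewhere. Neutrophil markers summed to 48780 to 60390 FPKM in KO and 25760 to 42150 FPKM in wildtype libraries, and erythroid markers to 24950 to 60710 FPKM and 71700 to 108600 FPKM. The libraries thus held abundant RNA of blood-forming cells beside that of cartilage, and in such bulk samples fewer cells of a type and less RNA per cell cannot be told apart.

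Promoters were examined for short motifs of the unfolded protein response and of the plasma cell factors. The sequences below run from 250 bases before to 50 after a RefSeq start (GRCm38.p6, the assembly to which the gene positions of the deposited table belong). They were picked for display among genes of the secretory arm and genes that were lower in KO. Prdm1, whose window holds a CCAAT box, is not shown, and not every match is in capitals. The windows shown for Slamf7 and Fkbp11 lie inside the gene as placed in the deposited table, not at its outer end. In Derl3 the capitals mark a CACGTG followed by an ER stress response element (ERSE, CCAAT and then CCACG after a spacer, 19 bases in all) on the opposite strand. In Fkbp11 they mark a CACGTG, in Jchain and Slamf7 an ACGTG core (on the opposite strand in Jchain), and in Sdc1 a CCAAT box on the opposite strand.
Derl3, chr10:75893148-75893447, plus strand: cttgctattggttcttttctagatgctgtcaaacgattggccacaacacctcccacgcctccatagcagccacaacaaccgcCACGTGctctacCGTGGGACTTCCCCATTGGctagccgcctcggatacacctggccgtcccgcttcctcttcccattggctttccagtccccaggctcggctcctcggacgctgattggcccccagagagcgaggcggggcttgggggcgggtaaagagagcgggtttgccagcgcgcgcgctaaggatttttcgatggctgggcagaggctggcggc
Fkbp11 (second start), chr15:98727578-98727877, minus strand: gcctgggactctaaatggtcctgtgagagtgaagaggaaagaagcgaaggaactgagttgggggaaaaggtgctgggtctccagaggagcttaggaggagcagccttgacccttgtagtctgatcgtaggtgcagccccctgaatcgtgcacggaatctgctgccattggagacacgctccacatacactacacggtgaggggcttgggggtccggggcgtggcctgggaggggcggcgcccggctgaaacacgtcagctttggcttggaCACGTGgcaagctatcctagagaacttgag
Jchain, chr5:88527848-88528147, minus strand: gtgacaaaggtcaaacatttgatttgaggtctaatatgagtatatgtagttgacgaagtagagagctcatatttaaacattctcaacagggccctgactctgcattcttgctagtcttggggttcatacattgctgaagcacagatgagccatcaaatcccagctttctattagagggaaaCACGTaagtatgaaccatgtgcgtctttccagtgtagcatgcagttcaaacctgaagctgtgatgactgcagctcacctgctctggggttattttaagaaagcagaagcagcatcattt
Slamf7, chr1:171648950-171649249, minus strand: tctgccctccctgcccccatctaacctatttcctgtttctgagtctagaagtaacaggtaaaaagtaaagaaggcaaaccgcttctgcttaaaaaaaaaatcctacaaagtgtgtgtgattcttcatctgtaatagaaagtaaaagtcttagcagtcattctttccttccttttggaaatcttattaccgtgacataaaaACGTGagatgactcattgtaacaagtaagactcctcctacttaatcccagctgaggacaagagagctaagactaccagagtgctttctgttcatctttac
Sdc1, chr12:8771146-8771445, plus strand: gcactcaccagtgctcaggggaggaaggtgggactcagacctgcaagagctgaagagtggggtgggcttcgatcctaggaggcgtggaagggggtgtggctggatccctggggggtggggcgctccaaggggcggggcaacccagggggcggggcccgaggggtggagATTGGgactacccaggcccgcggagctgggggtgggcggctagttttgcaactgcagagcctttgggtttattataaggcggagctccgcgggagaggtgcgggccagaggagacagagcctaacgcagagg

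Promoter windows matched for 9 of the 10 genes, 10 windows in all since Fkbp11 had 2 starts, and the window of Mzb1 was not used here. Both strands were searched. The ERSE was found in 1 of the 9 genes, Derl3, and in 0.119% of 32851 promoter windows of the same length. An ACGTG core was held by 4 genes (Derl3, Fkbp11, Jchain and Slamf7), against 19.6% of all windows, and its extended form CACGTG by Derl3 and Fkbp11, against 7.15%. CCAAT boxes lay in Derl3, Fkbp11, Prdm1 and Sdc1, against 37.4% of all windows, and 1 of those in Derl3 is part of the ERSE. Tnfrsf17 held the IRF pair motif (GAAA repeated after a short spacer, in 3.44% of windows). The element TGACGTGG (0.676% of windows) and the PRDM1 core motif (0.253%) were in none of the 9 genes. Such matches describe letters only and were not tied to binding.

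**Figure D1:**
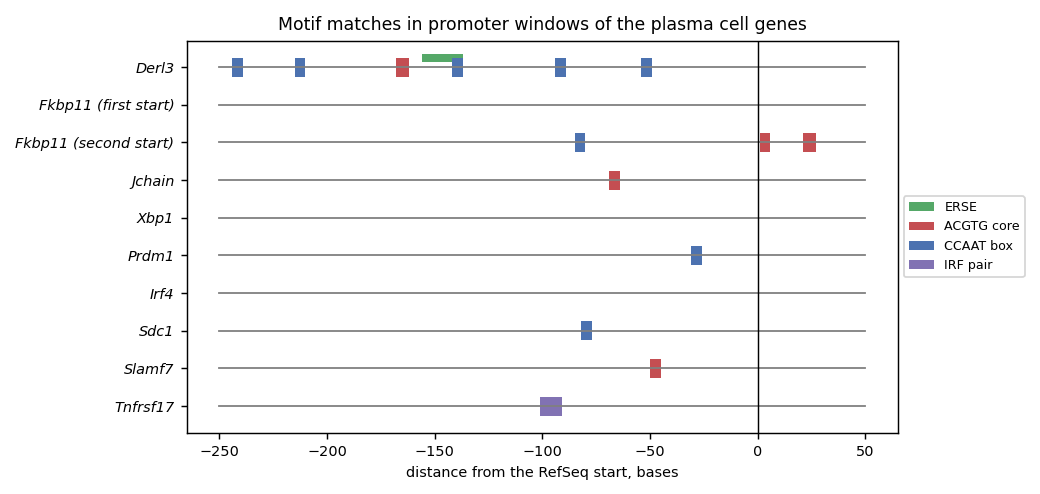
Matches to 4 motifs in the promoter windows of 9 plasma cell genes, by distance in bases from the RefSeq start (vertical line at 0), with a bar as long as the match. Derl3 carries the single ERSE match, and the windows of Xbp1, Irf4 and the first start of Fkbp11 are empty.

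In wildtype cartilage the levels spanned a wide range. Jchain, which encodes the chain that joins IgM and IgA into polymers, was highest at 189 ± 34.4 FPKM (SD, n = 3), above 98.8% of the tested genes. Then came Xbp1 at 57.2 ± 3.52, Mzb1 at 19.5 ± 1.93, Sdc1 at 7.86 ± 1.42, Irf4 at 5.53 ± 0.784 and Slamf7 at 4.50 ± 0.325 FPKM, and the libraries of each of these genes lay above those of the next. The 4 lowest were Derl3 at 2.49 ± 0.154, Prdm1 at 1.78 ± 0.772, Fkbp11 at 1.48 ± 0.638 and Tnfrsf17 at 0.888 ± 0.384 FPKM, and within them each gene overlapped its neighbour. In KO samples the order was the same for the first 7 genes, but there Slamf7 at 2.64 FPKM overlapped Derl3 at 2.46 FPKM.

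**Figure D2:**
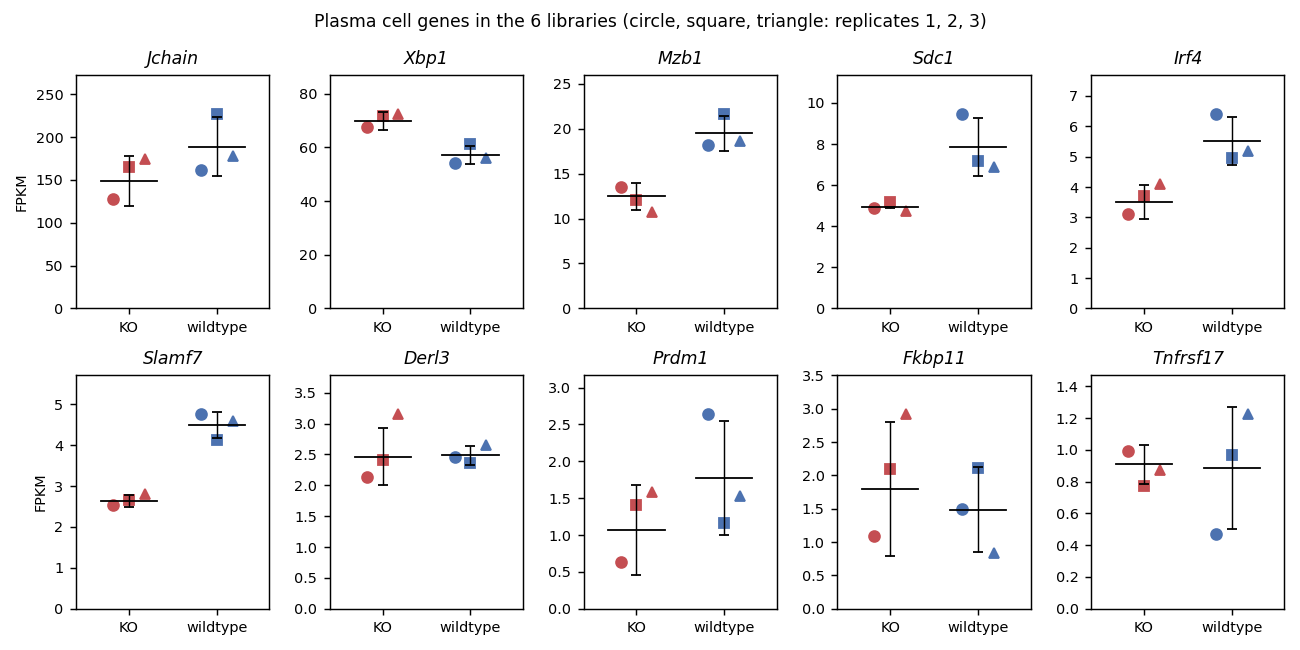
FPKM of each plasma cell gene (vertical axis, from 0) in the 3 KO and 3 wildtype libraries. Lines and bars give the mean and SD over 2 KO samples, with replicates 2 and 3 averaged, and 3 wildtype samples. Sdc1, Irf4, Mzb1 and Slamf7 are lower and Xbp1 higher in every KO library than in any wildtype library.

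To ask whether plasma cell genes differed in KO cartilage, the 10 genes were read from edgeR's quasi-likelihood fit of all 15373 tested genes. Slamf7, Sdc1, Irf4 and Mzb1 were lower in KO, at 0.60 to 0.65 of the wildtype level in the fit, and Xbp1 was 1.24 times as high, while the samples of the other 5 genes overlapped between the groups. By edgeR on the 5 samples 0 of the 10 genes had an adjusted p-value under 0.05, as did 0% of all tested genes, so these differences did not pass the test. At an unadjusted p-value under 0.05 there were 4 genes, all lower, against 6.06% of all tested genes in that direction and 7.63% in the other. The same 4 did not overlap between the groups (16% of all genes), and Xbp1 was the 1 gene that was higher without overlap (12.5%), which makes 5 of 10 genes against 28.6% in either direction. With the 6 libraries as labelled, 2 of the 10 genes passed (Slamf7 and Sdc1, both lower, against 3.71% of all genes in either direction and 1.25% in that one). DESeq2 on the 5 samples called 3 (Slamf7, Irf4 and Sdc1, against 5.78% of all genes in either direction), and limma called 0. The median log2 difference (KO minus wildtype) of the 10 genes was -0.48, against -0.02 for all tested genes, and -0.24 without the library labelled KO replicate 1. Without that library the log2 differences of Slamf7, Sdc1, Irf4, Mzb1 and Xbp1 were -0.75, -0.70, -0.54, -0.81 and 0.30, those of Jchain, Prdm1, Derl3, Fkbp11 and Tnfrsf17 were -0.20, -0.27, 0.13, 0.71 and -0.14. In that fit 0 of the 10 genes passed (lowest adjusted p-value 0.0897 by edgeR), against 2.31% of all tested genes.

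Of the surface receptors, Sdc1 (chromosome 12, 8771323 to 8793715, GRCm38) encodes the heparan sulfate proteoglycan used to sort plasma cells and is also made by some stromal and epithelial cells. Its level was 4.91, 5.16 and 4.73 FPKM in KO replicates 1, 2 and 3, and 9.48, 7.17 and 6.91 FPKM in wildtype replicates 1, 2 and 3. Every KO library lay below every wildtype library, and the highest library was wildtype replicate 1. The log2 difference was -0.65 (SE 0.174, edgeR adjusted p-value 0.194), and over the fits that left out libraries it ranged from -0.72 to -0.52. With the 6 libraries as labelled the adjusted p-value was 0.0484. Slamf7 (chromosome 1, 171632403 to 171653035), a self-binding receptor of plasma cells that is also known on NK cells and macrophages, was at 2.54, 2.66 and 2.82 FPKM in KO and 4.77, 4.13 and 4.59 FPKM in wildtype libraries. The groups did not overlap and each was tight, with a gap between them larger than either group's range. It had the smallest p-value of the 10 genes, with a log2 difference of -0.75 (SE 0.151, edgeR adjusted p-value 0.166) and 0.0358 with the 6 libraries as labelled. Leaving out libraries kept it between -0.78 and -0.72.

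Tnfrsf17 (chromosome 16, 11313812 to 11320074) encodes BCMA, the receptor through which APRIL and BAFF keep plasma cells alive. It was the least abundant member, at 0.995, 0.771 and 0.871 FPKM in KO and 0.471, 0.968 and 1.23 FPKM in wildtype libraries. The KO values lay inside the wildtype range, whose ends were set by wildtype replicates 1 and 3. With 26 to 64 counts per library, a log2 difference of 0.05 (SE 0.489, edgeR adjusted p-value 0.985) was estimated, the largest standard error among the 10 genes. Its sign changed in 3 of the alternative fits.

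Among the transcription factors, Irf4 (chromosome 13, 30749226 to 30766976) starts plasma cell differentiation at high dose and also serves in activated T cells, macrophages and dendritic cells. Levels of 3.12, 3.72 and 4.08 FPKM were found in KO libraries and of 6.42, 4.97 and 5.19 FPKM in wildtype libraries. The groups did not overlap, with KO replicate 1 lowest and wildtype replicate 1 highest. Its log2 difference was -0.64 (SE 0.166, edgeR adjusted p-value 0.187), and 0.0170 was the adjusted p-value by DESeq2. Prdm1 (chromosome 10, 44437177 to 44528501), the repressor that ends the B cell program, was at 0.631, 1.41 and 1.59 FPKM in KO and 2.64, 1.16 and 1.53 FPKM in wildtype libraries. Only KO replicate 1 lay below the wildtype range and only wildtype replicate 1 above the KO range, so the groups overlapped. The log2 difference of -0.73 (SE 0.435, edgeR adjusted p-value 0.544) was -0.27 without the library labelled KO replicate 1 and -1.40 without KO replicates 2 and 3.

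Xbp1 (chromosome 11, 5520659 to 5525893), the factor that drives the secretory expansion and is also active in other secreting cells, showed the opposite order. It was at 67.5, 71.8 and 72.6 FPKM in KO and 54.3, 61.1 and 56.1 FPKM in wildtype libraries, so that all KO libraries lay above all wildtype libraries. The log2 difference was 0.30 (SE 0.137), with an adjusted p-value of 0.396 by edgeR and of 0.141 with the 6 libraries as labelled. It was nearly the same in both parts of the KO group, at 0.30 without the library labelled KO replicate 1 and 0.32 without KO replicates 2 and 3. The table holds 1 value per gene, so the spliced form of Xbp1 was not measured here.

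**Figure D3:**
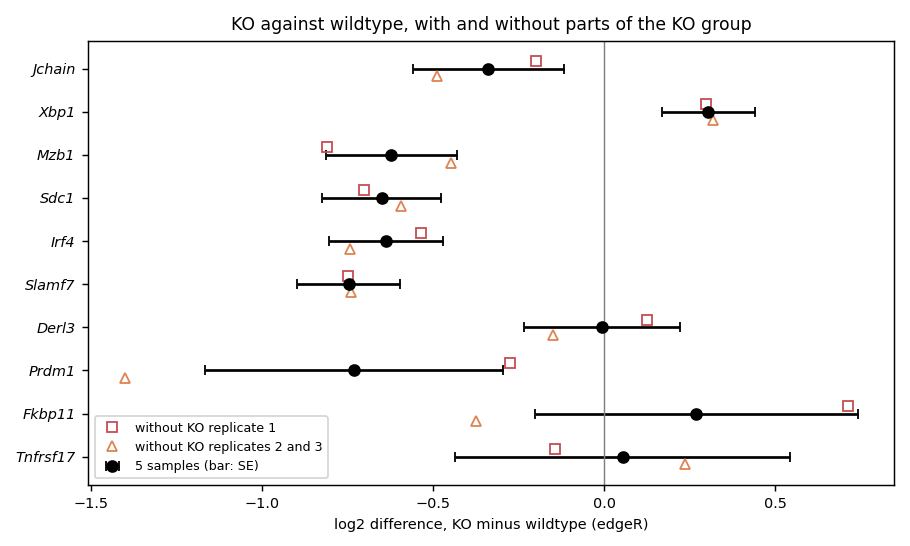
Log2 difference (KO minus wildtype, horizontal axis) of each plasma cell gene by edgeR on the 5 samples (black points, bars 1 SE), without the library labelled KO replicate 1 (squares) and without KO replicates 2 and 3 (triangles). Slamf7, Sdc1, Irf4, Mzb1 and Xbp1 hold their side of 0 throughout, whereas Derl3, Fkbp11 and Tnfrsf17 change sides.

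In the secretory group, Jchain (chromosome 5, 88519809 to 88527891) had 128, 165 and 174 FPKM in KO and 162, 228 and 178 FPKM in wildtype libraries. KO replicate 1 was the lowest and wildtype replicate 2 the highest library, and the others overlapped. A log2 difference of -0.34 (SE 0.221, edgeR adjusted p-value 0.587) was found. Mzb1 (chromosome 18, 35647267 to 35649367) encodes an ER chaperone that helps assemble IgM in B and plasma cells. It was at 13.5, 12.1 and 10.7 FPKM in KO and 18.1, 21.7 and 18.6 FPKM in wildtype libraries. Every KO library was lower, and KO replicates 2 and 3 were the lowest. The log2 difference was -0.62 (SE 0.190), and the adjusted p-value was 0.231 by edgeR and 0.0623 with the 6 libraries as labelled.

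Derl3 (chromosome 10, 75893413 to 75895941), which helps to export misfolded proteins from the ER for degradation, stood at 2.13, 2.42 and 3.16 FPKM in KO and 2.46, 2.35 and 2.66 FPKM in wildtype libraries. The KO libraries lay on both sides of the wildtype ones, and the log2 difference was -0.01 (SE 0.229, edgeR adjusted p-value 0.996). Fkbp11 (chromosome 15, 98724366 to 98728198), a prolyl isomerase of the ER, was at 1.09, 2.09 and 2.92 FPKM in KO and 1.49, 2.12 and 0.841 FPKM in wildtype libraries. Its values followed neither group, with the highest and the lowest library 3.48 times apart. The log2 difference of 0.27 (SE 0.472, edgeR adjusted p-value 0.890) became 0.71 without the library labelled KO replicate 1 and -0.37 without KO replicates 2 and 3. Between KO replicates 2 and 3, the closest pair of libraries, Fkbp11 and Derl3 differed by 0.48 and 0.39 on the log2 scale and each of the other 8 genes by 0.18 or less.

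Markers of other cell types were read from the same fit, in which 8069 of all 15373 tested genes were lower and 7304 higher. At an unadjusted p-value under 0.05 by edgeR, 6.06% of all tested genes were lower and 7.63% higher. All 10 B cell markers tested were lower in KO at an unadjusted p-value under 0.05, with a median log2 difference of -1.20, and their summed level was 96.8 to 152 FPKM in KO and 291 to 333 FPKM in wildtype libraries. All 7 pro-B and pre-B markers were lower as well (median -1.59, summed 21.4 to 28.5 FPKM in KO and 70.2 to 81.5 FPKM in wildtype). T and NK cell markers had a median of -0.42 (9 of 10 lower), but summed higher in KO (111 to 126 and 86.2 to 108 FPKM). Nkg7, the 1 higher marker of that list (log2 difference 0.57), gave most of each sum. Its level was 77.7 to 100 FPKM in KO and 52.8 to 67.1 FPKM in wildtype libraries. Plasmacytoid dendritic cell markers had a median of -0.28 (7 of 8 lower, 55.5 to 67.5 and 75.4 to 100.2 FPKM). Only Spib, also in the list of B cell state regulators below, had an unadjusted p-value under 0.05 by edgeR (log2 difference -1.23). Siglech, Klk1 and Cox6a2 were at -0.04, 0.02 and -0.07, and the rest between -0.46 and -0.225. Macrophage markers had a median of -0.23 (6 of 10 lower), and their sums overlapped (441 to 447 and 402 to 509 FPKM). At an unadjusted p-value under 0.05 by edgeR, Itgam was higher (log2 difference 0.99) and Mrc1 lower (-0.75). Itgam was at 83.3 to 154 FPKM in KO and 57.4 to 64.2 FPKM in wildtype libraries. Stromal markers had a median of -0.54 (10 of 10 lower, 801 to 994 and 758 to 1912 FPKM). Chondrocyte markers had a median of 0.06 (5 of 8 tested higher). It was -0.53 without the library labelled KO replicate 1 and 0.58 without KO replicates 2 and 3. Neutrophil markers were higher (10 of 10, median 0.84) and erythroid markers lower (9 of 9, median -0.91), and epithelial markers summed to at most 4.57 FPKM. No marker of these lists with a row in the deposited table was at 0 in every library. Rows were found for 9 of 10 erythroid and 4 of 6 epithelial markers, and not for Ahsp, Krt5 and Krt14. Without the library labelled KO replicate 1 the medians were -1.65 for B cell, -2.02 for pro-B and pre-B, -0.68 for T and NK cell, -0.59 for plasmacytoid dendritic cell, -0.39 for macrophage, -0.59 for stromal, 0.77 for neutrophil and -1.41 for erythroid markers. The part of these cells in the lower levels of Sdc1, Irf4, Mzb1 and Slamf7 was not tested.

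The XBP1 and ER program was examined next through 42 genes of protein folding, translocation and ER-associated degradation. All were tested, 32 were higher and 10 lower in KO, with a median log2 difference of 0.13, and 0 passed by edgeR on the 5 samples or on the 6 libraries as labelled. At an unadjusted p-value under 0.05 there were 3 of the 42, a smaller share than the 13.7% of all tested genes. Sdf2l1, a component of the ER chaperone complex, was at 33.6, 51.5 and 49.9 FPKM in KO and 22.8, 32.6 and 24.9 FPKM in wildtype libraries, without overlap (log2 difference 0.66, adjusted p-value 0.269 by edgeR, and 0.40 without KO replicates 2 and 3). Edem2, which trims glycans of misfolded proteins, had a log2 difference of 0.36, and the ubiquitin ligase gene Syvn1 of -0.35 (adjusted p-values 0.329 and 0.312 by edgeR). The higher level was seen in KO replicates 2 and 3. The summed level of the 42 genes was 2148 and 2154 FPKM there, but 1646 FPKM in KO replicate 1 and 1640 to 1722 FPKM in wildtype libraries, and without KO replicates 2 and 3 the median was -0.0049. For the 121 tested genes with the KEGG annotation for protein processing in the ER the median was 0.03, with 65 higher and 56 lower. That median was 0.08 without the library labelled KO replicate 1. On the 6 libraries as labelled 2 of the 121 passed, a smaller share than the 3.71% of all tested genes. These were Ero1l and Capn1 (log2 differences 0.72 and 0.57 on the 5 samples, that of Ero1l 0.43 without KO replicates 2 and 3). Man1a, a mannosidase gene of that annotation, had a log2 difference of -0.37.

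Of 10 genes of the stress sensors and their arms, 5 were higher and 5 lower (median log2 difference 0.01). An unadjusted p-value under 0.05 by edgeR was found for 3, against 13.7% of all tested genes. Trib3, a target of the PERK arm, was at 1.15, 2.03 and 2.02 FPKM in KO and 0.867, 0.793 and 0.652 FPKM in wildtype libraries (log2 difference 1.05, adjusted p-value 0.234 by edgeR, and 0.66 without KO replicates 2 and 3). Ppp1r15a, which encodes GADD34 and reverses the translational block, was lower at 55.4, 41.1 and 39.7 FPKM against 74.8, 63.3 and 81.2 FPKM (-0.58, adjusted p-value 0.267 by edgeR, with -0.89 without the library labelled KO replicate 1 and -0.32 without KO replicates 2 and 3), and Atf6b had a log2 difference of 0.35. Each of these 3 genes was without overlap between the groups, as were 28.6% of all tested genes.

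Of 16 tested genes of survival and the marrow niche, 9 were lower and 7 higher, and both ligands and receptors were among each. At an unadjusted p-value under 0.05 by edgeR there were 4 lower and 3 higher, against 6.06% and 7.63% of all tested genes. Without overlap between the groups were 4 lower and 3 higher, against 16% and 12.5%. On the 6 libraries as labelled 1 lower and 1 higher gene passed, against 1.25% and 2.46%. Tnfsf13b, which encodes BAFF, was at 3.86, 3.69 and 3.62 FPKM in KO and 2.74, 2.34 and 2.41 FPKM in wildtype libraries, with a log2 difference of 0.61 (SE 0.149). Tnfrsf13c, the BAFF receptor of mature B cells, was at 2.22, 2.09 and 2.01 FPKM in KO and 6.71, 5.12 and 5.20 FPKM in wildtype libraries, with a log2 difference of -1.38 (SE 0.218). Neither pair of groups overlapped, and the adjusted p-values by edgeR were 0.175 and 0.166 on the 5 samples and 0.0450 and 0.0288 on the 6 libraries as labelled. Cd38, an ectoenzyme of plasma cells and other leukocytes, and Vcam1, a stromal adhesion molecule, had log2 differences of -0.74 and -0.54 (adjusted p-values 0.201 and 0.264 by edgeR). The other genes at an unadjusted p-value under 0.05, named after their values were seen, were Tnfsf13 (APRIL, 0.79), Il6ra (0.59, or 0.26 without KO replicates 2 and 3) and Cxcl12 (-0.63). APRIL is a ligand of BCMA, and Tnfsf13 was at 15.6, 16.4 and 15.0 FPKM in KO and 6.40, 11.6 and 9.34 FPKM in wildtype libraries. The median of the list was -0.08.

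Other genes known from plasma cells were mostly lower. Of 16 tested, 12 were lower and 4 higher, with a median log2 difference of -0.17. At an unadjusted p-value under 0.05 by edgeR there were 6 lower and 1 higher, against 6.06% and 7.63% of all tested genes. Cd38, 1 of the 6, was also in the survival and niche list. Pou2af1, a B lineage coactivator, was at 9.68, 10.3 and 11.2 FPKM in KO and 25.6, 23.1 and 22.3 FPKM in wildtype libraries (log2 difference -1.19), and the kinase gene Pim2 at 3.38, 4.03 and 3.76 FPKM against 6.57, 5.17 and 6.25 FPKM (-0.70). Ly6c2, which is also a monocyte and granulocyte gene, was the single higher one at 218, 248 and 244 FPKM against 125, 144 and 136 FPKM (0.79). Their adjusted p-values by edgeR were 0.106, 0.175 and 0.166 on the 5 samples and 0.0141, 0.0404 and 0.0358 on the 6 libraries as labelled.

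The regulators that hold the B cell state and are opposed by PRDM1 were mostly lower, 8 of 10. Pax5 was at 1.86 to 1.91 FPKM in KO and 6.75, 4.74 and 5.30 FPKM in wildtype libraries (log2 difference -1.55). Ebf1, Bach2 and Spib had log2 differences of -1.45, -1.30 and -1.23, and Ciita, named after its value was seen, of -0.62. The adjusted p-values of these 5 genes ranged from 0.106 to 0.194 by edgeR on the 5 samples. All 5 passed on the 6 libraries as labelled, against 1.25% of all tested genes in that direction. Bcl6, also named afterwards, was the 1 of the 10 genes that was higher at an unadjusted p-value under 0.05 (0.34). The median over the list was -0.44. Without the library labelled KO replicate 1 it was -0.78, against -0.27 for the other plasma cell genes, 0.10 for survival and niche, 0.18 for the stress sensors and 0.20 for the XBP1 and ER program.

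**Figure D4:**
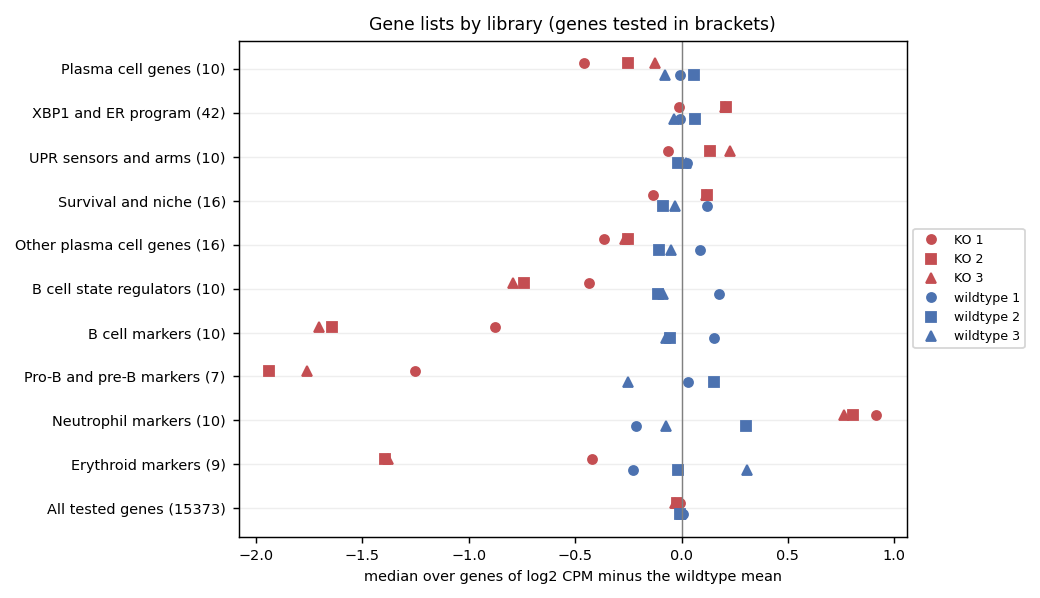
For each gene list (tested genes in brackets) and each library, the median over genes of log2 CPM minus the wildtype mean (horizontal axis), with KO in red and wildtype in blue. KO libraries of the plasma cell genes lie from -0.46 to -0.13, nearer to 0 than those of B cell markers (-1.70 to -0.88), and the XBP1 and ER program is at 0.21, 0.20 and -0.01 in KO replicates 2, 3 and 1.

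The immunoglobulin constant genes differed among themselves. Ighg2b was at 124, 58.6 and 57.9 FPKM in KO and 26.7, 22.6 and 32.9 FPKM in wildtype libraries, Ighg2c at 129, 108 and 107 against 40.9, 42.2 and 53.6 FPKM, whereas Ighd was at 22.1, 13.0 and 14.1 against 73.3, 40.5 and 49.6 FPKM. Ighm (607 to 986 FPKM in KO, 861 to 1060 FPKM in wildtype) and Igkc (2127 to 2830 and 2484 to 2738 FPKM) overlapped, as did Igha (141 to 382 and 265 to 266 FPKM), Iglc1 (73.3 to 248 and 78.1 to 96.7 FPKM) and Ighg3 (3.28 to 7.31 and 1.54 to 19.1 FPKM). Ighg1 was at 33.1 to 96.7 FPKM in KO and 4.25 to 14.8 FPKM in wildtype libraries, while Iglc2 (47.7 to 55.4 and 66.7 to 70.4 FPKM) and Iglc3 (36.5 to 41.9 and 84.1 to 107 FPKM) were lower in every KO library. Ighe, under the filter for testing, had 4, 115 and 145 counts in the libraries labelled KO replicates 1, 2 and 3 and 49, 0 and 0 counts in wildtype replicates 1, 2 and 3, so that the groups overlapped. Counts may be split between such close paralogs.

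The 10 genes did not share 1 pattern. Their mean profile of log2 CPM, centred on each gene's mean over the 6 libraries, ran from -0.28 in KO replicate 1 to 0.22 in wildtype replicate 2, and the members lay at Euclidean distances of 0.35 (Jchain) to 1.43 (Fkbp11) from it. The 5 other tested genes nearest to that mean profile over the 6 libraries were Ngrn, Adal, Ahsa2, Rars2 and Kansl2-ps, at distances of 0.087 to 0.11. A mean over 10 genes is smoother than any 1 of them, so this likeness is a description only.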

How the data were processed

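Per the labels, oligo(dT)-selected RNA of articular cartilage was made into strand-specific libraries with molecular identifiers. The submitters' processing notes list cutadapt 1.9, HISAT2 2.0.4, UMI-tools and StringTie 1.3.4d, without roles. The authors deposited FPKM values, scaled within each library, and counts per gene. The deposited counts behave as estimated counts: whole numbers, but piled up at 4 (6596 values, against 4170 at 3). The annotation was not given in the sources used here. Of 34607 genes also in GENCODE M21, 30117 had the same GRCm38 position. All columns were matched to samples by name.

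Averaging KO replicates 2 and 3 (rounded to whole counts) followed an earlier analysis, and the noise ratio was the median over genes with 200 to 50000 counts of the squared difference over its Poisson expectation, scaled to 1 for Poisson counts. Genes averaging 0.5 FPKM or more were tested with edgeR 4.0.16 (R 4.3.3; TMM, quasi-likelihood), with Benjamini-Hochberg adjustment over 15373 genes. Standard errors came from the log2 difference and F. A count of 0 allows, at a floor of 3 counts, 0.0574 CPM in the shallowest library, for counting error only. Alternatives used limma 3.58.1 on log2(FPKM + 1) or log2(FPKM + 0.1), DESeq2 1.42.0, other scaling and filters, a replicate block and fewer libraries.

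The members and gene lists were chosen with earlier results of these data known. Genes named were the 10 members, immunoglobulin constant genes, and the 5 genes most like the members. Of each list other than the cell type markers, up to 4 genes with the smallest unadjusted p-values under 0.05 were also named. Some cell type markers and list genes were named outside that rule, among them Siglech, Klk1 and Cox6a2. The knocked-out gene is given by its role only.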

Additional observations from a re-analysis of the deposited data

How the results depend on the processing

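Of the plasma cell genes, 0 passed an adjusted p-value of 0.05 by edgeR on the 5 samples, 2 did with the 6 libraries as labelled and 3 with DESeq2, where Tnfrsf17 had no adjusted p-value. There were 0 in every other alternative run, including each fit that left out libraries. Of those runs, 355 of all genes passed without the library labelled KO replicate 1, 21 without a filter, 9 without KO replicates 2 and 3, 1 each without wildtype replicates 2 and 3, and 0 in the rest. Where 1 KO sample remained, it was assumed to vary like the wildtype samples. The minimum of 5 FPKM left 4 of the 10 genes to test.

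The median log2 difference of the 10 genes was -0.48 and ranged from -0.51 to -0.24 with each library left out, at -0.24 without the library labelled KO replicate 1 and -0.33 without wildtype replicate 2. The XBP1 and ER list, at 0.13, was at -0.0049 without KO replicates 2 and 3, and the survival and niche list, at -0.08, at 0.10 without the library labelled KO replicate 1.

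Apart from Derl3, Tnfrsf17 and Fkbp11, the members kept their sign in each alternative run. Derl3 turned to 0.040 with the 6 libraries as labelled, 0.027 with the replicate block, 0.0065 with DESeq2, 0.0052 with median-of-ratios scaling, 0.032 without a filter, and ranged from -0.11 to 0.13 with each library left out (0.053 without wildtype replicate 3, 0.095 without KO replicate 2). Tnfrsf17 was at -0.019 with the 6 libraries as labelled and ranged from -0.26 to 0.35 with libraries left out (-0.14 without the library labelled KO replicate 1). Fkbp11 ranged from -0.37 to 0.71 (-0.0025 without wildtype replicate 3, -0.37 without KO replicates 2 and 3). The cause was not tested.

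With the replicate block on the 6 libraries, 0 of the 10 genes and 0 of all genes passed, against 2 and 570 without it. Same-numbered libraries did not deviate together (correlations across genes of -0.21, -0.18 and 0.0014).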
